A study of Sus scrofa with 5 samples.

Results

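Heat shock proteins and the chaperones of the endoplasmic reticulum (ER) were examined in backfat, the fat layer under the skin of the pig. A gene was taken as a member when a probe set of the array was annotated with exactly 1 symbol starting HSPA, HSPB, HSPD, HSPE, HSPH, HSP90, DNAJ, PDIA, CCT followed by a digit or A, or SEC61, or with ERP29, ERP44, CALR, CANX, HYOU1, TCP1 or SERPINH1. This gave 63 genes of the 6765 genes with a symbol on the array, from 106 probe sets, and the probe set with the highest mean over the 5 arrays stood for each gene. They were sorted into 7 compartments, namely 16 genes of ER folding, 3 of the SEC61 translocon, 10 cytosolic HSP70, HSP110 and HSP90 proteins, 15 cytosolic J-domain proteins, 7 small heat shock proteins, 6 subunits of the CCT ring and 6 mitochondrial chaperones. The 10 include HSPBP1, which the symbol rule took although it is not an HSP70, HSP110 or HSP90. J-domain proteins not placed in the ER or mitochondria were counted as cytosolic, but DNAJC8, DNAJC9, DNAJC14 and DNAJC17 among them need not be. Backfat RNA of 5 female pigs of a backcross between Iberian and Landrace had been hybridized to Affymetrix porcine arrays, 1 array per animal. The animals BC4, BC5 and BC6 belonged to the High (H) group, with more polyunsaturated fatty acids in muscle, and BC2 and BC3 to the Low (L) group, with more saturated and monounsaturated fatty acids. No animal was treated, all were fed the same kind of cereal-based diet and they were slaughtered at a similar age. The groups had been formed on a principal component of carcass and fatty acid traits, so that they differ in many traits at once. The labels give the animal number only, and the group of each animal is that of the study.

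Chaperones bind unfolded protein and let it fold or keep it from clumping. Newly made secreted proteins enter the ER through the SEC61 channel, where HSPA5 (BiP) holds them, J-domain proteins hand them on, calnexin and calreticulin retain those with sugar chains, and protein disulfide isomerases form their disulfide bonds. In the cytosol the HSP70 and HSP90 machines do comparable work, some of their genes being strongly induced by heat and other stress, the CCT ring folds actin and tubulin, and HSPD1 and HSPE1 form a folding chamber in the mitochondrial matrix. Adipocytes use the ER route to secrete hormones such as adiponectin and leptin.

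The values were on the log2 scale, with array medians of 4.21 to 4.29 and a floor of 2.17, at which a probe set has no measured level. Some probe sets above the floor also had the same value on several arrays, and such a tie is not read as a steady level. Of the 63 genes, HSPB3 was at the floor on all 5 arrays, which left 62, and 5993 of the 6765 genes were above it on some array. The tissue label was borne out by FABP4, a fatty acid carrier of adipocytes, which lay between 15.36 and 15.49. Of 5 listed lymphocyte markers 2 had a probe set, and CD3E was at the floor. The fibroblast marker COL3A1 was at the floor too, so that a floor value does not show that a cell type is absent. Of the hepatocyte markers 4 of 5 were measured, and ALB lay between 2.58 and 4.69, AHSG between 2.22 and 2.65 and TF between 3.61 and 4.61, but APOA1 between 11.29 and 12.57. Muscle RNA differed between arrays, since the summed level of the 3 measured skeletal muscle markers (CKM, MYL1 and TNNT3, of 6 listed) was 8.30 on BC5, 6.34 on BC3 and 4.01 to 4.48 on the others. BC5 also had the largest difference between the 3′ and 5′ probe sets of the GAPDH control, 2.49 against 1.52 to 1.90. Such a difference is a sign of shorter RNA or shorter labelled copies. It was not particular to BC5. For the actin control BC5 and BC3 were close, at 4.80 and 4.77, against 3.85 to 4.06 on the others. For the EF1A control BC5 was highest and BC3 next, whereas for GAPDH BC3 was at 1.82, below BC4. In whole tissue, fewer cells of a type and less RNA per cell cannot be told apart. Probe sets differ in how strongly they bind, so that levels are compared between animals and not between genes.

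The difference between the groups was small for most members. The mean of H lay below that of L for 40 of the 62 genes and above it for 22, with a median difference (H minus L) of -0.09 on the log2 scale, while the median over the 5993 genes was 0. Without BC3 the counts were 33 lower and 29 higher, with a median of -0.04, and without BC5 they were 36 and 26, also with a median of -0.04. Without BC2, BC4 or BC6 they stayed at 40 and 22, with medians of -0.10, -0.11 and -0.08. The threshold joined 3 conditions of limma, a p-value up to 0.01, a Benjamini-Hochberg value up to 0.1 and at least a 1.2-fold difference, and 0 members met it, as did 0 of the 23999 probe sets tested (0%). At an unadjusted p under 0.05 there were 3 members lower in H, ERP29, HSPA2 and HSPD1, which is 4.84% of them where 2.84% of all genes were lower, and 0 members higher in H, where 2.12% of all genes were higher. Over all probe sets 3.18% had such a p. The groups did not overlap for 8 members lower in H (12.9%, against 9.78% of all genes) and for 3 higher in H (4.84%, against 8.04%). Members were brighter than most genes, 66.1% having a mean over 8, against 45.2% of all genes. Among genes with a mean over 8, 52.8% had a lower mean in H. Without overlap, 11.3% of these were lower and 8.56% higher. Every member other than ERP29 had an adjusted p of 1 from limma, and the standard errors below are those of limma. With 3 arrays against 2, an exact permutation test of a single gene cannot give a p below 0.1.

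**Figure D1:**
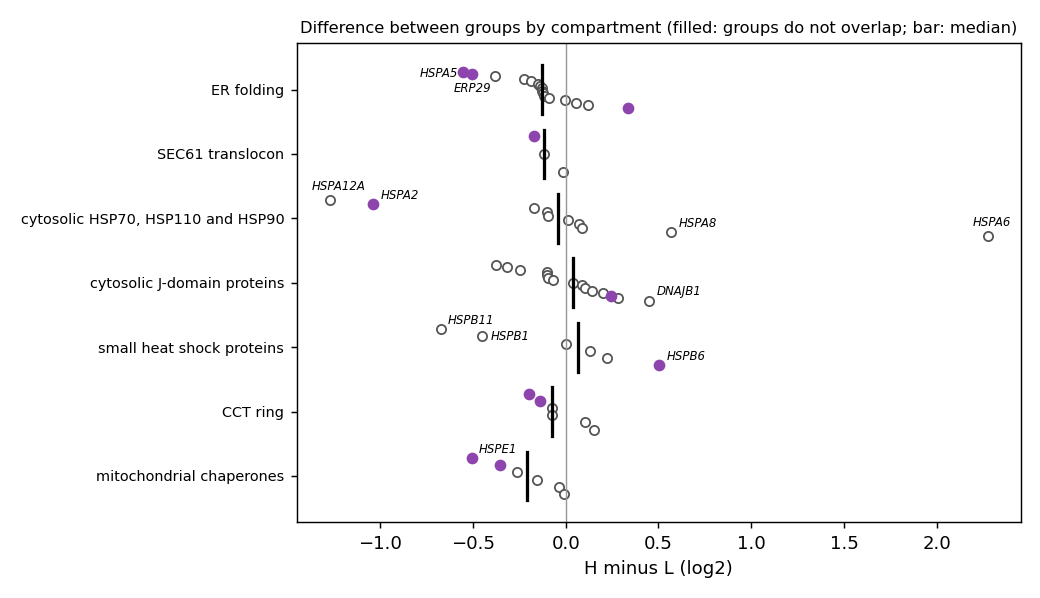
Difference between the groups (H minus L, log2) for the 62 members above the floor, 1 point per gene, by compartment. Filled points are the 11 members whose groups do not overlap and bars are compartment medians, which run from -0.21 for mitochondrial chaperones to 0.07 for small heat shock proteins.

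In ER folding the mean of H was below that of L for 13 of 16 genes, with a median difference of -0.13. HSPA5, the HSP70 of the ER lumen and its most general chaperone, was at 12.27 and 12.00 in the L animals BC2 and BC3 and at 11.38, 11.54 and 11.84 in the H animals BC4, BC5 and BC6. All H animals thus lay below both L animals, with a difference of -0.55 (standard error 0.191), or 0.682 times the L level. ERP29, a lumenal protein related to the disulfide isomerases but without their active cysteines, was at 10.26 and 10.25 in L and at 9.75, 9.72 and 9.78 in H. Its pooled SD between animals of 1 group was 0.0241, so that the difference of -0.50 (standard error 0.021, unadjusted p = 7.01e-05, adjusted p = 0.494 from limma) was about the size of that of HSPA5 with far less spread. This standard error depended on the setting of limma. It was 0.096 without the dimmest 40% of probe sets (adjusted p = 0.878 from limma), 0.042 with an intensity trend and 0.018 with array weights. PDIA3 (ERp57), the isomerase that works with calnexin and calreticulin, went the other way, at 9.01 and 9.09 in L and 9.36, 9.63 and 9.16 in H, a difference of 0.33 (standard error 0.168). Its 2 other probe sets were close to the floor and gave -0.01 and 0.

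**Figure D2:**
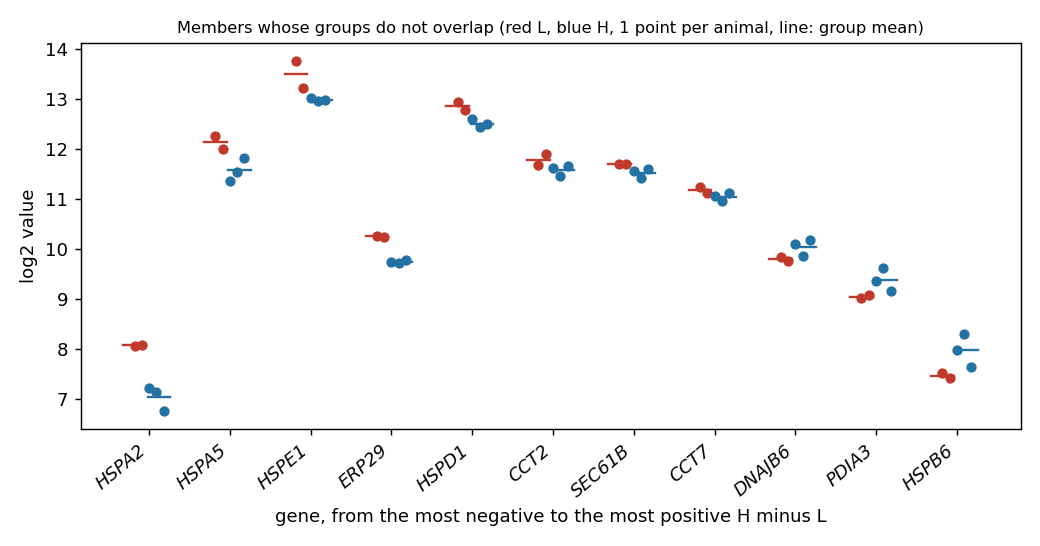
Values (log2) of the 11 members whose groups do not overlap, red for L and blue for H, 1 point per animal (BC2 to BC6 from left to right) with a line at each group mean. HSPA2, HSPA5, HSPE1, ERP29, HSPD1, CCT2, SEC61B and CCT7 lie lower in H, and DNAJB6, PDIA3 and HSPB6 higher.

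By their brightest probe sets, the other chaperones of the ER lumen and membrane overlapped between the groups, and the L animals often lay on both sides of H. CALR, calreticulin, was at 8.10 on BC2 and 8.91 on BC3 and between 8.29 and 8.55 in H. PDIA6, an isomerase that binds HSPA5, was likewise at 10.44 and 11.29 in L and 10.69 to 10.95 in H. HSP90B1 (GRP94), the HSP90 of the ER, was at 11.68 and 12.27 in L and 11.58 to 11.97 in H, a difference of -0.15 (standard error 0.261). Its second probe set, at 11.13 on average, had the L animals in the reverse order, at 11.71 and 11.08. In H that probe set was at 11.58, 9.63 and 11.68, a difference of -0.43 (standard error 0.843). In these genes the L animals differed from each other by more than the group means. CANX, calnexin, differed by -0.12 (standard error 0.182), PDIA4 by 0.06 (standard error 0.211) and ERP44, which retains adiponectin and other proteins with free cysteines, by -0.19 (standard error 0.205). SERPINH1, the chaperone of collagen, was at 8.54 and 9.08 in L and 8.38, 8.73 and 8.92 in H. The summed level of the fibroblast markers was 14.8 and 15.0 in L and 14.3 to 15.3 in H, with 4 of 6 measured and COL3A1 at the floor, and their part in the value of SERPINH1 was not tested. BC3 was the highest array for 8 of the 16 genes of ER folding, where it was the highest for 16.2% of all genes.

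BC5, by contrast, was the lowest array for 9 of the 16 genes of ER folding and all 3 of the SEC61 translocon, where it was the lowest for 25.8% of all genes. The co-chaperones of HSPA5 stood out among them. DNAJB9 (ERdj4), which brings misfolded proteins to degradation, was at 9.46 on BC5 and 9.83 on BC3, and at 10.53 on BC4, 10.69 on BC6 and 10.79 on BC2. Its second probe set gave the same order of animals. The dimmest one, at 7.45 on average, was lowest on BC5 too, but its groups did not overlap. It was at 8.29 and 7.48 in L and 7.40, 6.91 and 7.19 in H. DNAJC3, which joins HSPA5 and damps the arrest of translation under ER stress, was at 5.72 on BC5 and 6.40 to 6.86 on the others. DNAJB11 (ERdj3), a lumenal partner of HSPA5, was at 6.95 on BC5 and 7.53 to 7.92 elsewhere. DNAJB14, in the ER membrane, was at 7.27 and 7.96 to 8.31, HSPA13 at 7.92 and 8.28 to 9.11, and HYOU1, the exchange factor of HSPA5, at 7.61 and 8.01 to 8.34. HSPA5 itself was lowest not on BC5 but on BC4. Without BC5, 8 genes of ER folding were higher and 8 lower in H, with a median difference of 0.01, and without BC3 the counts were the same, with a median of 0.0049. Without BC2 the median was -0.35. On BC5 the adipocyte markers ADIPOQ and LEP were also lowest, at 9.09 against 10.52 to 12.20 and at 4.41 against 8.27 to 10.48, while FABP4 was highest there. The part of these, of the muscle markers and of the 3′ to 5′ difference in the ER values of BC5 was not tested.

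**Figure D3:**
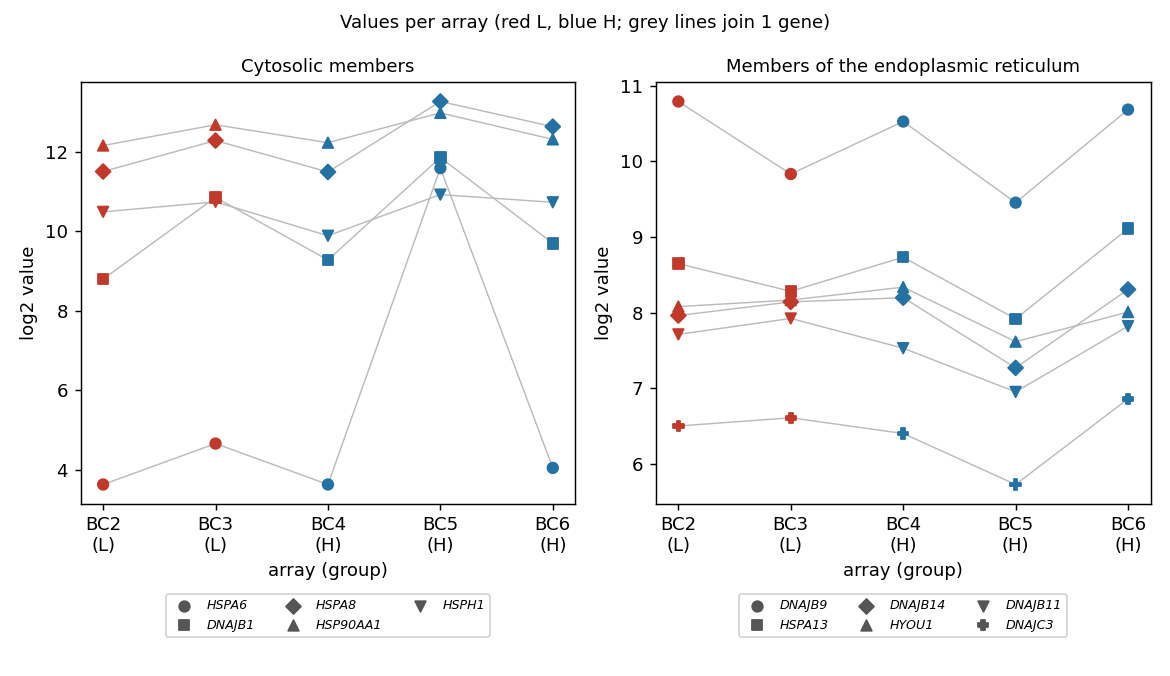
Values (log2) of 5 cytosolic members (left) and 6 members of the ER (right) on each array, red for L and blue for H, where grey lines only join the points of 1 gene. Only genes at an extreme on BC5 are shown, the cytosolic members at their highest, HSPA6 by 6.92 over the next array, and the ER members at their lowest. BC5 was the highest array for 4 of the 10 cytosolic HSP70, HSP110 and HSP90 genes and the lowest for 2. It was the highest for 1 of the 16 genes of ER folding and the lowest for 9.

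Of the SEC61 translocon, SEC61B, the beta subunit of the channel, was at 11.70 in both L animals and at 11.56, 11.42 and 11.61 in H, a difference of -0.17 (standard error 0.068) with no overlap. SEC61A1, which forms the pore, was at 10.25 and 10.58 in L and 10.12 to 10.42 in H. SEC61G, the gamma subunit, stayed within 0.114 over all 5 arrays and differed by -0.02.

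The cytosolic HSP70, HSP110 and HSP90 genes were split, 5 means being higher and 5 lower in H, with a median difference of -0.04. HSPA6, an HSP70 that is nearly silent without stress, was at 11.59 on BC5, at 4.66 on BC3 and 4.05 on BC6, and at 3.64 on both BC2 and BC4. It lay 6.92 above the next array on BC5, or 121 times, and had the largest spread within groups of all 5993 genes (pooled SD 3.68). Its group difference of 2.27 (standard error 3.17) was therefore that of 1 animal, and it was -0.31 without BC5. DNAJB1, the main stress-induced J-domain partner of HSP70, followed the same order of animals, at 11.85 on BC5, 10.85 on BC3, 9.70 on BC6, 9.28 on BC4 and 8.80 on BC2. HSPA8, the constitutive HSP70, was at 13.26 on BC5, 12.63 on BC6, 12.28 on BC3, 11.50 on BC2 and 11.49 on BC4. HSP90AA1, the inducible HSP90, was highest on BC5 too, at 12.97 against 12.15 to 12.67, and so was HSPH1, the HSP110 that exchanges the nucleotide of HSP70, at 10.92 against 9.89 to 10.74. HSP90AB1, the constitutive HSP90, stayed between 12.67 and 12.91.

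BC5 and BC3, the animals with most HSPA6 and DNAJB1, were also those with most skeletal muscle marker RNA. They also had the highest summed levels of the 5 endothelial markers, at 14.07 and 13.54 against 13.00 to 13.41 on the others. BC5 and BC3 had the highest 3′ to 5′ differences for actin and EF1A as well, but for GAPDH BC3 lay below BC4. The part of the muscle and endothelial markers and of the 3′ to 5′ differences was not tested. The difference of DNAJB1, 0.45 over all animals, was -0.34 without BC5 and -0.58 without BC2. That of HSPA8 was 0.17 without BC5 and 0.18 without BC2, and 0.57 over all animals. No probe set was annotated to HSPA1A or HSPA1B, and cross-hybridization between HSP70 genes was not tested. HSP90AA1 had 5 probe sets that did not move together. Those at 12.47 and 7.27 on average were highest on BC5, at 12.97 and 8.31, whereas those at 10.31 and 8.44 on average were lowest there, at 9.51 and 7.74. The mean over its probe sets gave a difference of -0.19 where the brightest gave 0.09. DNAJA1, a J-domain partner of HSP70, showed the same on a smaller scale, its second probe set being at 9.32 on BC5 and 8.12 to 8.49 on the others, while the brightest one lay between 9.38 and 9.87 with BC5 in the middle.

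HSPA2, an HSP70 best known from the testis, did not follow this order. It was at 8.06 and 8.09 in the L animals and at 7.22, 7.13 and 6.76 in the H animals, a difference of -1.04 (standard error 0.174, unadjusted p = 0.00683, adjusted p = 1 from limma), or 0.487 times the L level. HSPA12A, a distant relative of HSP70, had a mean difference of -1.27 (standard error 0.791) that rested on BC2, at 8.57 against 6.69 on BC3 and 7.06, 5.98 and 6.03 in H, and without BC2 it was -0.33. HSPA4, another exchange factor of HSP70, differed by -0.17 (standard error 0.133).

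**Figure D4:**
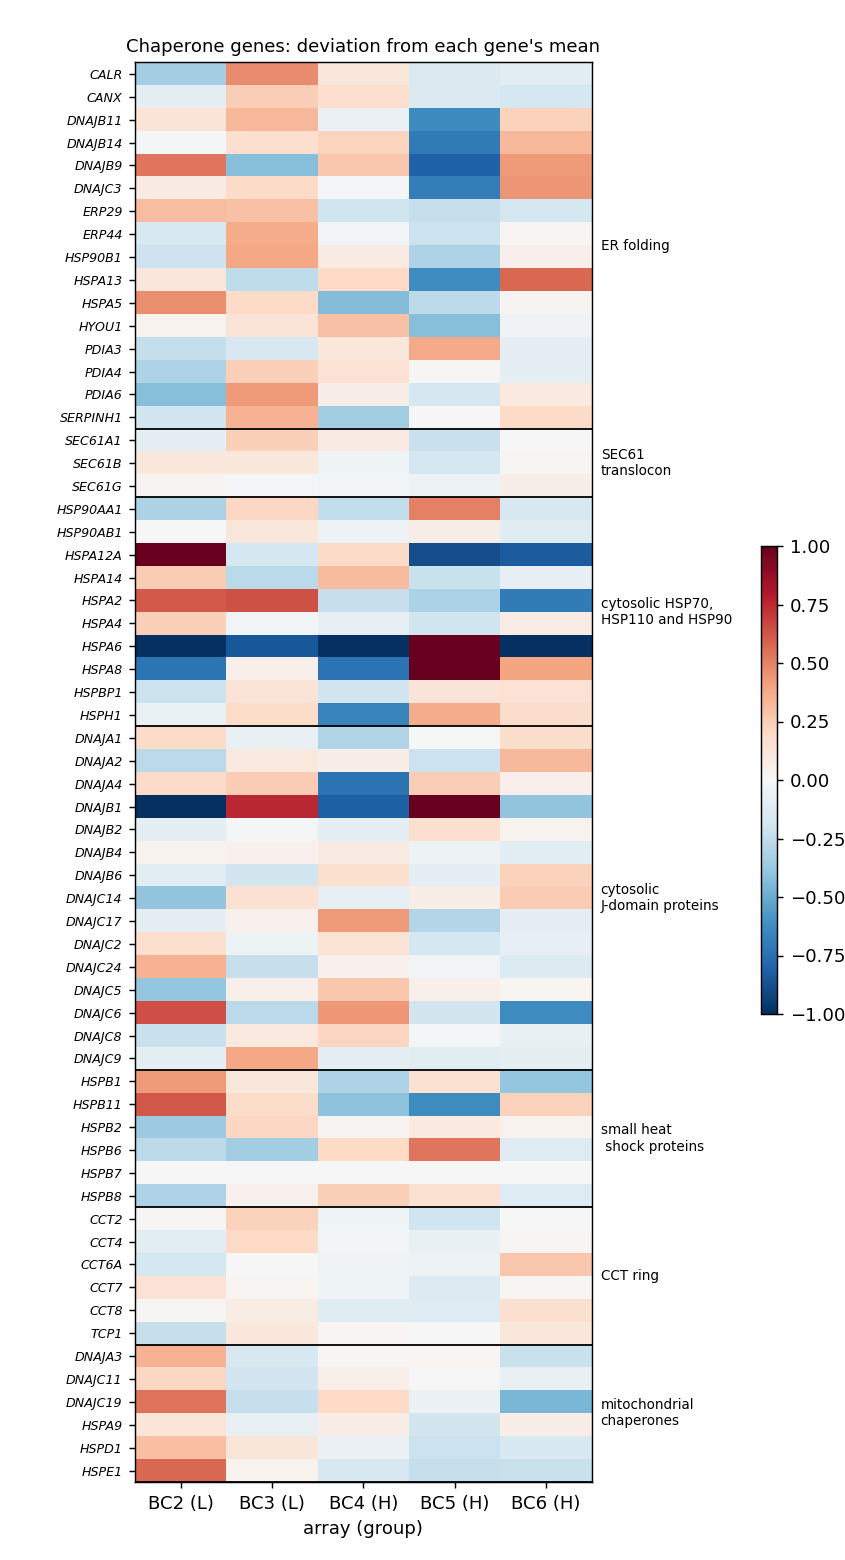
Value minus the gene's own mean over the 5 arrays (log2, colours clipped at 1 in either direction) for the 62 members above the floor, in rows by compartment, with 1 column per array. BC5 is red for HSPA6, HSPA8 and DNAJB1 and blue for DNAJB9, DNAJC3, DNAJB14 and HSPA13, and BC2 is red for all 6 mitochondrial chaperones.

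Among the 15 J-domain proteins counted as cytosolic 8 means were higher and 7 lower in H, with a median difference of 0.04. DNAJB6, which keeps aggregation-prone proteins soluble, was at 9.85 and 9.77 in L and 10.11, 9.86 and 10.19 in H, a difference of 0.24 (standard error 0.125) with no overlap, though BC5 was barely above BC2. Its most variable probe set gave -0.04. DNAJC5, the cysteine string protein of vesicles, differed by 0.28 (standard error 0.182), with BC3 and BC5 both at 6.09. DNAJC6, the auxilin that uncoats clathrin vesicles, ran from 5.73 on BC6 to 7.01 on BC2. DNAJC9, a chaperone of histones, was at 3.72 on BC3 and within 3.23 to 3.24 on the other arrays, with the same value on BC2 and BC4.

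The small heat shock proteins hold unfolded protein without ATP and are abundant in muscle. HSPB1 (HSP27), the most widespread of them, was at 9.23 and 8.92 in L and 8.50, 8.96 and 8.42 in H, a difference of -0.45 (standard error 0.234). HSPB11, which carries the family name but is a part of intraflagellar transport, was at 8.21 and 7.77 in L and 7.18, 6.96 and 7.81 in H, a difference of -0.67 (standard error 0.350). In both, 1 H animal lay just above BC3. HSPB6 (HSP20), a protein of smooth muscle, was higher in H with no overlap, at 7.51 and 7.43 in L and 7.98, 8.31 and 7.64 in H (difference 0.50, standard error 0.237). The smooth muscle markers, 4 of 5 being measured, had higher means in H in all 4, with summed levels of 11.9 and 13.2 in L and 12.5 to 13.6 in H, and their part in HSPB6 was not tested. HSPB7 lay at 5.36 to 5.37, with the same value on BC2, BC3 and BC4, and HSPB8 lay between 2.77 and 3.32. HSPB2 and its neighbour on the Sscrofa11.1 assembly, CRYAB, another small heat shock protein that the symbol rule did not take, were both highest on BC3, followed by BC5 and BC6.

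The CCT ring was the most even of the larger compartments. Its 6 measured subunits had pooled SDs of 0.0825 to 0.163 within groups, with a median of 0.136 against 0.223 for all genes above the floor and 0.227 for those with a mean over 8. CCT2 was at 11.68 and 11.90 in L and 11.63, 11.47 and 11.67 in H, a difference of -0.20 (standard error 0.108), and CCT7 differed by -0.14 (standard error 0.071). In both the groups did not overlap, but BC6 was barely below an L animal, at 11.67 against 11.68 for CCT2 and at 11.12 beside 11.12 for CCT7. TCP1 and CCT6A, subunits of the same ring, had means higher in H by 0.10 (standard error 0.125) and 0.15 (standard error 0.141). No probe set was annotated to CCT3 or CCT5.

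All 6 mitochondrial chaperones had lower means in H, with a median difference of -0.21. HSPE1 (HSP10), the lid of the folding chamber, was at 13.77 and 13.23 in L and 13.04, 12.97 and 12.98 in H, a difference of -0.51 (standard error 0.191). HSPD1 (HSP60), its barrel, was at 12.95 and 12.78 in L and 12.60, 12.44 and 12.50 in H, a difference of -0.35 (standard error 0.082, unadjusted p = 0.0188, adjusted p = 1 from limma). The pair are next to each other on the Sscrofa11.1 assembly, and the 5 animals came in the same order for both, BC2, BC3, BC4, BC6 and BC5 from high to low. HSPA9 (mortalin), the HSP70 of the matrix, was at 11.81 and 11.62 in L and 11.76, 11.50 and 11.76 in H. DNAJC19, a J-domain protein of import through the inner membrane, was at 10.27 and 9.50 in L and 9.93, 9.67 and 9.27 in H, and DNAJA3, a J-domain protein of the matrix, differed by -0.16 (standard error 0.203). BC2 was the highest array for all 6 genes, where it was the highest for 21.7% of all genes. Without BC2 the median difference was 0.08 and 4 of the 6 means were higher in H, HSPD1 and HSPE1 being the exceptions, and without BC3 it was -0.42.

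**Figure D5:**
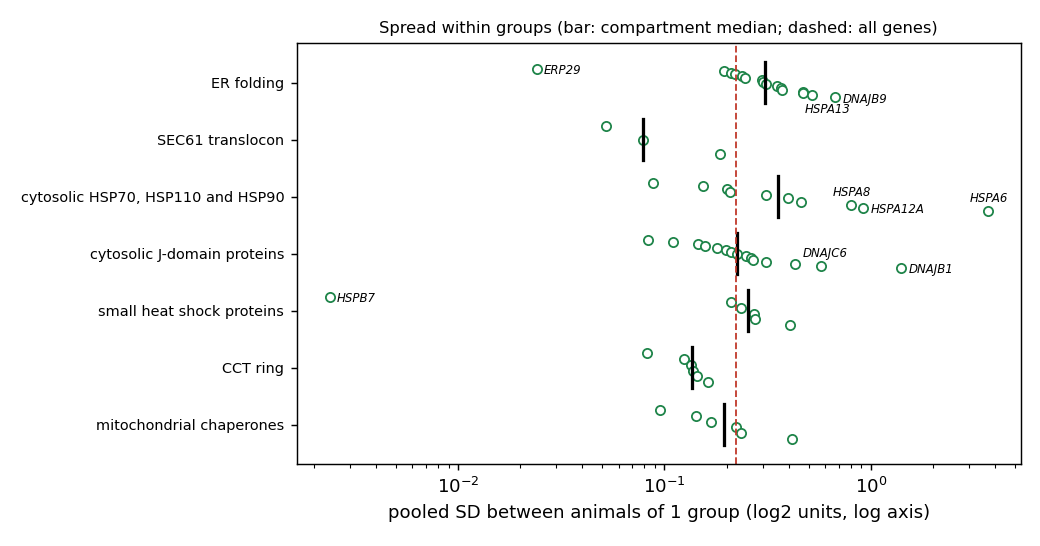
Pooled SD between animals of 1 group (log2 units, log axis) for the 62 members above the floor, by compartment, with bars at compartment medians and a dashed line at 0.223, the median of all genes above the floor. The CCT ring lies wholly to the left of the line, and HSPA6 (3.68), DNAJB1 (1.41) and HSPA12A (0.916) lie far to the right.

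The spread between animals of 1 group differed between the compartments. The median pooled SD was 0.354 for cytosolic HSP70, HSP110 and HSP90, 0.306 for ER folding, 0.253 for small heat shock proteins, 0.225 for cytosolic J-domain proteins, 0.195 for mitochondrial chaperones and 0.0791 for the SEC61 translocon. Over 0.5 were HSPA6, DNAJB1, HSPA12A, HSPA8, DNAJB9, DNAJC6 and HSPA13, which is 11.3% of the 62 genes, where it was 15.7% of all genes.

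Regulators and partners of these chaperones were taken from 2 lists. Of 22 listed genes of heat shock control and co-chaperones 18 were measured, 13 with means lower in H, and by limma 0 passed the threshold and 0 had an unadjusted p under 0.05. HSF1, the heat shock factor, lay between 5.61 and 5.84, with the same value on BC2, BC3 and BC4, and HSF2 lay between 8.23 and 8.40. BAG5, an exchange factor of HSP70, was highest on BC5, at 5.87 against 4.38 to 4.91, while BAG3, a stress-induced one, was lowest there, at 10.40 against 10.74 to 11.13. Why BC5 was at opposite ends for BAG5 and BAG3 was not tested. Of 36 listed names of the unfolded protein response and ER quality control, some of them older names of 1 gene, 18 genes were measured, SPCS2 being at the floor. The mean was lower in H for 13 and higher for 4, with a median difference of -0.12, and again 0 passed the threshold and 0 had an unadjusted p under 0.05 by limma. DDIT3 (CHOP), the transcription factor of prolonged ER stress, was at 8.58 and 7.22 in L and 6.19, 6.73 and 6.61 in H, a difference of -1.39 (standard error 0.520) that limma left with an adjusted p of 1. MANF, a secreted protein induced by ER stress, was at 9.90 and 9.99 in L and 9.67, 9.26 and 9.85 in H. SPCS3, of the signal peptidase, was at 10.08 and 10.05 in L and 9.84, 9.02 and 9.76 in H. In these 3 genes the groups did not overlap, which is 17.6% of those above the floor, where 9.78% of all genes were lower in H without overlap. In the list of heat shock control 2 genes were lower without overlap (11.1%). There 1 gene, BAG5, was higher without overlap (5.56%, against 8.04% of all genes). In MANF and SPCS3 BC5 was the lowest array, as in ER folding. XBP1 and ATF4, transcription factors of the response, differed by -0.04 each.

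Where a member had several probe sets, they often went apart. Of 25 such genes, 36 further probe sets were above the floor, and 18 of them had the sign of the brightest one. HSPA8 was one of the genes whose probe sets all had 1 sign, at 0.08 to 0.57, and those of PDIA4 did not, the probe set that was not chosen giving -0.59. The 3 other probe sets of HSPA8 were dimmer, at 3.32 to 5.48 on average, and were highest on BC6 or BC4, not on BC5.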

How the data were processed

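The arrays were scanned by the authors, and the deposited values are log2 values per probe set after background adjustment and normalization between arrays. The methods name GCRMA for this and the submitters' processing notes RMA, so the method is not settled. The extraction note names liver, and the tissue label backfat. Of 24123 probe sets 124 controls were left out and 23999 were tested, of which 5576 (23.2%) were at the floor on all arrays. Platform annotation gave 10069 probe sets 1 symbol, 198 several and 13732 none. Of the 106 probe sets of members, 103 had a gene ID in a current RefSeq table, all with the same symbol, and those of CCT6A had none.

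H minus L was tested with limma 3.58.1 in R 4.3.3 over all 23999 probe sets, with Benjamini-Hochberg adjustment and the thresholds the study gives for its sequencing test. The pooled SD joins the variances of both groups. Summed levels are log2 of summed linear values. Groups that differ by 1e-06 or less were taken as overlapping. The estimate of the difference was checked on simulated data with known shifts. The p-values, the threshold and the calls of overlap were not checked in this way. The number of arrays limits the precision. The members, lists and tests were chosen with earlier results of these data known. Genes were named from a list of key members, as the 3 with the smallest p and the 2 with the largest pooled SD in each compartment, when at the floor on all arrays, or as partners with an unadjusted p under 0.05 (0 of them), and HSPB2, HSPB7, HSPB8, CRYAB, DNAJB14, DNAJC3, HSF1, HSF2, BAG3, BAG5, DDIT3, MANF, SPCS3, XBP1 and ATF4 after their values were seen. HSPBP1, DNAJC8, DNAJC14 and DNAJC17 were named for their compartment only. Alternatives were other scalings, filters on dim probe sets, variance models, array weights, another probe set per gene, and fits that drop 1 animal at a time. Sequencing data of these pigs were not used.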

Additional observations from a re-analysis of the deposited data

How the results depend on the processing

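The threshold was met by 0 members under every alternative that kept all 5 arrays and the same threshold, while an unadjusted p under 0.05 gave 3. Leaving out 1 animal gave 0 to 2 members, namely DNAJC9 without BC2, and ERP29 and HSPE1 without BC3. In those fits L is 1 animal, assumed to vary like the H animals, and 160 and 286 probe sets passed in all. No paired analysis was possible because no animal number occurs in both H and L. Leaving out 1 animal moved the median difference of ER folding to -0.35 to 0.013, of the SEC61 translocon to -0.18 to -0.029, of small heat shock proteins to -0.075 to 0.20, of the CCT ring to -0.13 to 0.020 and of mitochondrial chaperones to -0.42 to 0.076. Of 43 named members, 19 kept the sign of their difference under every alternative, among them HSPA5, ERP29, SEC61B, HSPA2, HSPB1, HSPB6, HSPD1 and HSPE1. Except for HSPB1, the groups of these genes do not overlap, so that dropping 1 animal could not turn the sign. They had 1 probe set each, or for HSPB6 a further one at the floor, so that another probe set could not turn it either. Of the 43, 10 turned under an alternative that kept all animals. Quantile normalization gave 0.0044 for PDIA6 and 0.052 for SEC61G. Array weights gave 0.026 for PDIA6, 0.057 for DNAJB9 and -0.023 for HSP90AA1. The mean of a gene's probe sets gave -0.18 for PDIA4, 0.14 for DNAJA1, -0.19 for HSP90AA1 and -0.023 for HSPA13. The most variable probe set gave 0.019 for CANX, -0.013 for PDIA3, -0.59 for PDIA4, 0.39 for DNAJA1 and -0.041 for DNAJB6. Without 1 animal the sign turned within these ranges of the difference: CALR -0.52 to 0.29, CANX -0.30 to 0.048, DNAJA1 -0.23 to 0.033, DNAJA3 -0.41 to 0.096, DNAJB1 -0.58 to 1.48, DNAJB9 -0.57 to 0.39, DNAJC19 -0.65 to 0.12, DNAJC6 -0.77 to 0.14, ERP44 -0.45 to 0.076, HSP90AA1 -0.17 to 0.35, HSP90B1 -0.45 to 0.15, HSPA13 -0.14 to 0.46, HSPA6 -0.31 to 3.67, HSPA9 -0.13 to 0.056, HSPH1 -0.31 to 0.21, HYOU1 -0.31 to 0.049, PDIA4 -0.22 to 0.33, PDIA6 -0.43 to 0.42, SEC61A1 -0.28 to 0.046, SEC61G -0.049 to 0.0083, SERPINH1 -0.40 to 0.14 and TCP1 -0.064 to 0.27. The cause was not tested. With 5 arrays, small differences cannot be separated from the spread between animals, and dim probe sets near the floor understate them.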
